A study of Rattus norvegicus with 9 samples.

Results

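The genes most often used as reference genes in quantitative PCR, Actb, Actg1, Gapdh, Hprt1, Ppia, Tbp, Ywhaz, Pgk1, and Gusb, were followed across 9 one-color Agilent rat arrays of the brain after stroke. Every non-control probe whose gene name equalled 1 of these 9 symbols was taken, which gave 16 of the 30367 probes on the array, for 9 of its 26276 gene names and identifiers. Of these, 15 had signals well above background on every array of 1 group or more, and they are among the 23747 probes that met this filter and were tested. The remaining Gusb probe, A_64_P116844, was well above background on 0 of the 9 arrays. A gene with several probes is described by its brightest probe unless a probe is named.

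All samples were from Sprague Dawley rats, and the study's methods give infarcted hemispheres taken on day 14 as the tissue. The Sham rats had the operation without occlusion and received solvent, in the I/R rats the middle cerebral artery was occluded for 2 h and then reperfused, and the DHI rats had the same injury and daily Danhong injection, a herbal preparation, through the tail vein for 14 days. Each group had 3 arrays. The study's methods give the dose of the DHI group in different units in different places. All Sham and I/R arrays lay on 1 slide and the DHI arrays on another, and the slide and the DHI treatment therefore cannot be told apart.

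Quantitative PCR reports a target gene relative to a reference gene, and the result is only as steady as that reference. The usual references are genes that nearly every cell needs. Actb and Actg1 encode the cytoplasmic actins, Gapdh and Pgk1 consecutive enzymes of glycolysis, Hprt1 an enzyme of purine salvage, Ppia cyclophilin A, Tbp the TATA-binding protein of the basal transcription machinery, Ywhaz the 14-3-3 zeta protein, and Gusb the lysosomal enzyme beta-glucuronidase. After a stroke the tissue loses neurons and gains microglia, macrophages, and reactive astrocytes, and these cells use actin, glycolysis, and lysosomes to different degrees. The study used beta-actin as the reference of its own qRT-PCR.

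A value on an array is what hybridises to a 60-base probe, so the probes that carry the results are shown as the files give them, in lower case and read from the 5′ end. Positions are those of the files in rn4. In the Gapdh probes the capitals mark the longest run of bases shared with another probe of the array that carries another name. The Actb probe lay at chr12:12049595-12049654 on the plus strand, the Actg1 probe at chr10:109775044-109775103 on the minus strand, and the Gusb probe at chr12:27754333-27754392 on the plus strand. The Gapdh probes lay at chr4:161282433-161282601 and chr4:161282760-161282907 on the minus strand and the Ppia probe at chr14:87168450-87169308 on the plus strand. The last 3 spans are longer than the probe.
Actb A_44_P423803: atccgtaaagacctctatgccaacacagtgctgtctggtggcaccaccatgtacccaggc
Actg1 A_64_P378624: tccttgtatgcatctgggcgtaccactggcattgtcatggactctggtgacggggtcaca
Gapdh A_64_P052510: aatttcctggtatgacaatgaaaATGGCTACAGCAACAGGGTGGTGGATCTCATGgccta
Gapdh A_64_P232432: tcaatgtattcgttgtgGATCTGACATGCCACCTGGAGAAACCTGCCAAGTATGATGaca
Ppia A_64_P058353: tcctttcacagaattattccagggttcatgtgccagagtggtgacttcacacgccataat
Gusb A_64_P073004: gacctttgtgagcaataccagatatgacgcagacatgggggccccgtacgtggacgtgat

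Values are log2 intensities above or below the array's own 75th percentile, and a difference of 1 is a change by a factor of 2. On the Sham arrays the 9 genes hardly varied. The SD of the 3 Sham values of the brightest probes was between 0.015 for Ppia and 0.11 for Ywhaz. After I/R, 6 of the 9 genes had at least 1 probe that differed from Sham by limma with a Benjamini-Hochberg adjusted p under 0.05. Of the 15 probes tested 9 were called, against 32.4% of all probes tested. They were 3 higher probes, against 16.7% of all probes, and 6 lower ones, against 15.8%. The called probes of Gapdh, and likewise those of Gusb, repeat the same gene, so the 9 are not separate members. Gusb and Actb rose, whereas Gapdh, Hprt1, Pgk1, and 1 of the 3 Ppia probes fell. In 13 of the 15 probes the Sham values lay wholly to 1 side of the I/R values, against 62.5% of all probes tested. Without scaling this held for 9, against 53.9%. At the thresholds of the study's methods, an unadjusted p under 0.05 and a fold change over 1.5, 10 of the 15 probes were called, against 43.1% of all probes. The p alone was under 0.05 for 10, against 50.7%, and the methods' t-test also called 10, against 39.8%. After adjustment this t-test called 9, against 32.5%. These were not the same 9 probes as by limma. All 3 Ppia probes were among them, whereas Actb and Hprt1 were not.

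These calls stood close to the threshold. Without scaling between the arrays 0 of the 15 probes were called in I/R versus Sham, against 0.00421% of all probes (1 probe), and with scaling on the spike-in controls 2, both of Gusb, against 16%. Leaving out any of the 3 Sham arrays, I/R 1, I/R 2, or DHI 3 also left 0, when over all probes between 0 and 3 remained, whereas without DHI 1 there were 12, against 51% of all probes, and without I/R 3 there were 10, against 45.4%. A model of only the groups compared called 13, against 46.4%, and array weights 13, against 74.5%. The member counts thus moved with those of the whole array.

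Gusb, whose enzyme breaks down glucuronic acid residues in the lysosome, moved most of the 9 genes. It measured −3.21, −3.27, and −3.13 on the Sham arrays, 0.86, 0.43, and −0.60 on the I/R arrays, and 0.01, −3.29, and −2.71 on the DHI arrays. The 3 I/R arrays lay far above every Sham array, DHI 1 lay among the I/R arrays, and DHI 2 lay below all Sham arrays. Relative to Sham, Gusb rose 10.8-fold in I/R (log2 3.43 ± 0.79, SE, limma adjusted p = 0.040, 3 arrays a group). The second Gusb probe, printed above, rose 9.42-fold (log2 3.24 ± 0.77, limma adjusted p = 0.040).

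Actb, the reference of the study's qRT-PCR, rose 1.71-fold in I/R versus Sham (log2 0.77 ± 0.25, SE, limma adjusted p = 0.046). Its values were 4.54, 4.54, and 4.65 on the Sham arrays, 5.50, 5.63, and 4.91 on the I/R arrays, and 5.48, 4.99, and 4.78 on the DHI arrays. Every I/R and every DHI array lay above every Sham array at this scaling, but without scaling DHI 2 and DHI 3 (15.82 and 15.83) lay below the Sham arrays (15.87 to 16.01), and with the spike-in controls the DHI and Sham arrays overlapped. The Actb probe was printed 10 times on each array, and the SD of its spots within an array was between 0.022 and 0.039. Between the arrays of a group it was 0.062 for Sham, 0.38 for I/R, and 0.36 for DHI. The direction of Actb was the same under the 7 scalings tried (log2 0.66 to 0.97), but the adjusted p was above 0.05 with quantile normalization (0.054), in the authors' series table (0.055), with the spike-in controls (0.055), and without scaling (0.061).

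The other cytoplasmic actin, Actg1, gave a different picture. Its brightest probe, A_64_P090244, measured 6.63, 6.58, and 6.62 in Sham, 6.68, 6.57, and 6.42 in I/R, and 6.55, 6.77, and 6.69 in DHI. The groups overlapped, and the difference of I/R from Sham was −0.05 ± 0.14 (SE, limma adjusted p = 0.77). The other Actg1 probe, A_64_P378624, measured 3.09, 3.28, and 3.42 in Sham and 3.75, 3.84, and 3.57 in I/R, with a difference of 0.46 ± 0.21 that did not pass the test (limma adjusted p = 0.11). The log2 ratio of the 2 probes differed by −0.51 between I/R and Sham, so the probes did not give the same account of the gene. The brightest probe shares a run of 29 bases with 1 other probe of the array.

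**Figure D1:**
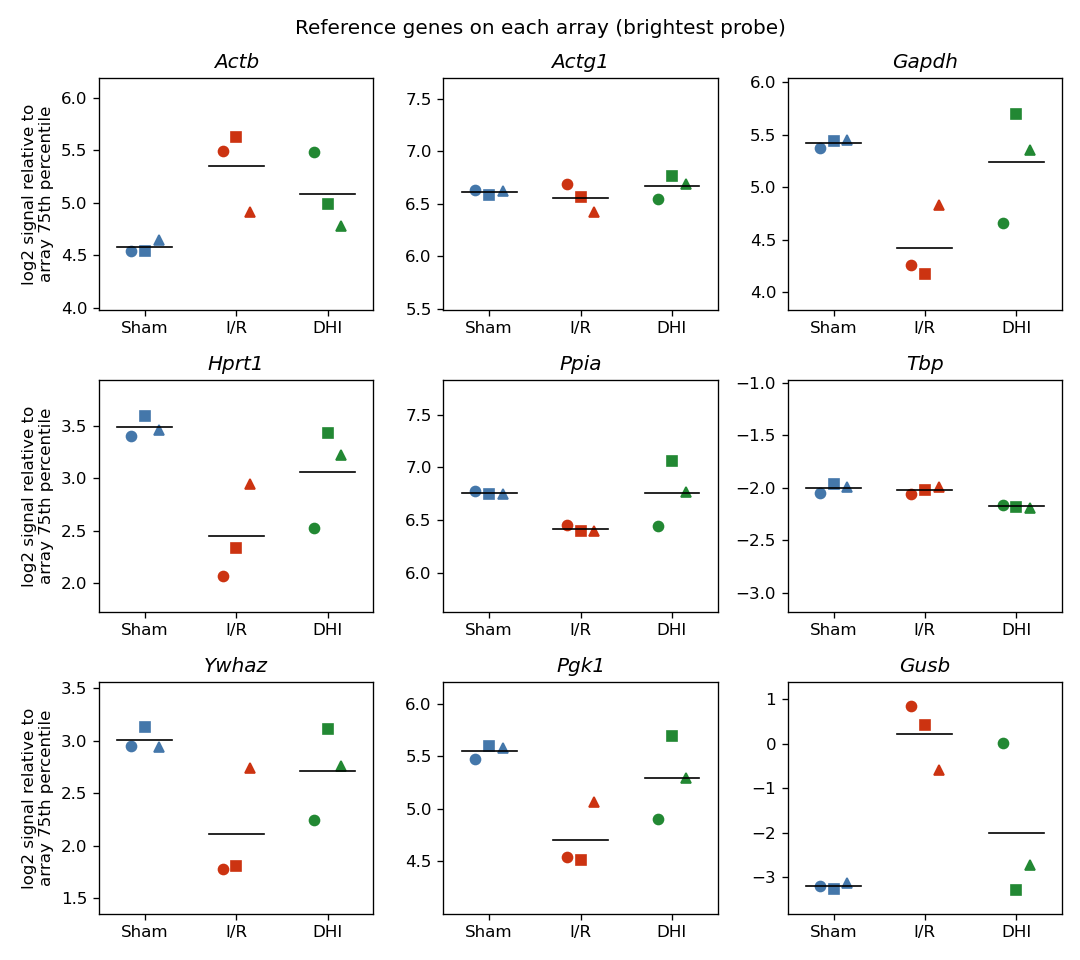
Log2 signal of each reference gene relative to the 75th percentile of each array, for the 3 arrays of each group (circle, square, and triangle for replicates 1, 2, and 3; the line is the mean). All panels span the same range of log2 units except Gusb, whose range is wider. Tbp and Actg1 stay almost level, Actb and Gusb are higher in I/R, and Gapdh, Hprt1, Ywhaz, and Pgk1 are lower, with DHI 1 next to the I/R arrays.

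The 2 glycolytic references fell together. Gapdh, which oxidises glyceraldehyde-3-phosphate, measured 5.38, 5.44, and 5.45 in Sham, 4.26, 4.18, and 4.83 in I/R, and 4.66, 5.69, and 5.36 in DHI. Gapdh was 2-fold lower in I/R (log2 −1.0 ± 0.29, SE, limma adjusted p = 0.041). The 2 other Gapdh probes differed by −1.02 and −0.98, and the log2 ratio between any 2 of the 3 probes had an SD of 0.062 to 0.080 over the 9 arrays. Pgk1, the next enzyme of the pathway, measured 5.48, 5.59, and 5.57 in Sham, 4.54, 4.51, and 5.06 in I/R, and 4.90, 5.70, and 5.29 in DHI, and was 1.80-fold lower in I/R (log2 −0.84 ± 0.24, limma adjusted p = 0.040).

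The 3 Gapdh probes share sequence with many others. Besides the members, 33 probes of the array, under other names or identifiers, share an unbroken run of 20 or more bases with a Gapdh probe, and the rat genome is known for many processed Gapdh copies. All 33 were tested, all 33 fell in I/R versus Sham with limma adjusted p under 0.05, against 15.8% of all probes tested, and their differences were between −1.16 and −0.96 (median −1.0). The probe with the 40-base run in capitals above differed by −1.05 ± 0.27, and that with the 32-base run by −1.0 ± 0.28. Whether these probes measure their own transcripts or Gapdh RNA cannot be told apart from these values, and the 33 probes are therefore no separate evidence. The probes of Actb, Hprt1, Ppia, Tbp, Ywhaz, Pgk1, and Gusb share no run of 20 bases with a probe of another name.

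**Figure D2:**
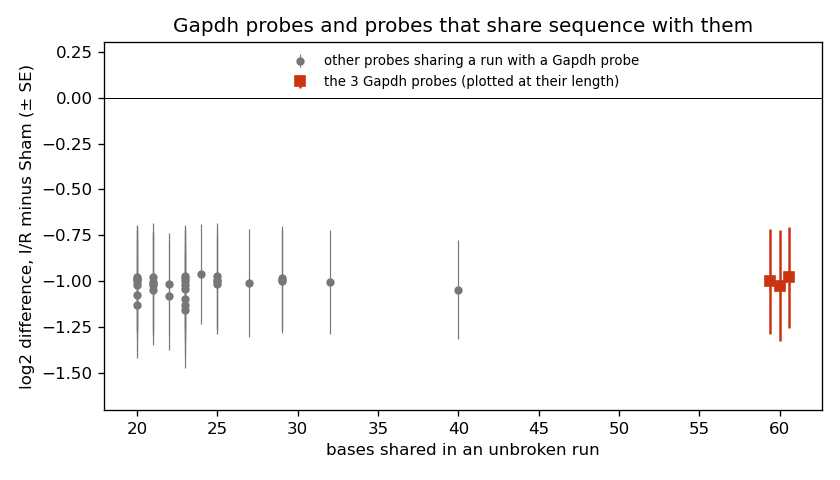
Log2 difference of I/R minus Sham (± SE) of the 3 Gapdh probes (squares, plotted at their length of 60 bases) and of the 33 other probes that share a run of at least 20 bases with one of them (circles, at the length of the run). All lie between −1.16 and −0.96 whatever the length of the run.

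Hprt1 and Ywhaz, which are not glycolytic, took nearly the same course as Gapdh. Hprt1 measured 3.4, 3.59, and 3.46 in Sham, 2.07, 2.34, and 2.95 in I/R, and 2.53, 3.43, and 3.22 in DHI. It was 2.05-fold lower in I/R (log2 −1.03 ± 0.29, SE, limma adjusted p = 0.041). Ywhaz measured 2.95, 3.13, and 2.94 in Sham, 1.78, 1.81, and 2.74 in I/R, and 2.25, 3.11, and 2.76 in DHI. Its difference of −0.90 ± 0.31 did not pass the adjusted test (limma adjusted p = 0.056), although the groups did not overlap.

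Ppia is a peptidyl-prolyl isomerase with 3 probes on the array. Its brightest probe, A_64_P058351, measured 6.77, 6.75, and 6.74 in Sham, 6.45, 6.39, and 6.39 in I/R, and 6.44, 7.07, and 6.77 in DHI. All I/R arrays lay below all Sham arrays, with a difference of −0.34 ± 0.17 that did not pass the test (SE, limma adjusted p = 0.15). A second probe, A_64_P016970, differed by −0.38 ± 0.18 (limma adjusted p = 0.13). The probe printed above fell by 0.72 ± 0.19 on the log2 scale (limma adjusted p = 0.040), and the log2 ratio of the brightest probe to it was 0.38 higher after I/R.

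The 2 other Ppia probes overlap by 47 bases and differ in 4 of them. The first 30 bases of the overlap are shown with the differing bases in capitals.
Ppia A_64_P016970: ctcaCtccccttcaagtctaGcaggattgG
Ppia A_64_P058351: ctcaTtccccttcaagtctaCcaggattgC
Counted from the first base shown, and with the base of A_64_P016970 first, the differences in the overlap are C5T, G21C, G30C, and G34A. In spite of them the log2 ratio of the 2 probes had an SD of 0.039 over the 9 arrays, and they differed by 0.04 between I/R and Sham.

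Tbp was the steadiest of the 9 genes at this scaling. It measured −2.05, −1.97, and −2.0 in Sham, −2.06, −2.02, and −2.0 in I/R, and −2.16, −2.18, and −2.19 in DHI. The Sham and I/R values overlapped, with a difference of −0.02 ± 0.12 (SE, limma adjusted p = 0.90). All 3 DHI arrays lay below all other arrays, with mean differences of −0.15 from I/R and −0.17 from Sham, and neither difference passed the test (limma adjusted p = 0.38 and 0.71). The DHI arrays were also those of the other slide.

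The SD over the 9 arrays sums up how far a reference gene moved, whatever the cause. It was 0.086 for Tbp, 0.10 for Actg1, 0.233 for Ppia, 0.430 for Actb, 0.453 for Pgk1, 0.530 for Ywhaz, 0.558 for Hprt1, 0.560 for Gapdh, and 1.79 for Gusb. The median over all probes tested was 0.432, and only 1.07% of these probes had a smaller SD than Tbp and 1.82% than Actg1. Actb, at 49.8%, stood in the middle of all probes, Gapdh at 62.6%, and Gusb at 96.6%. Thus 5 of the 9 usual references, Gapdh, Hprt1, Ywhaz, Pgk1, and Gusb, varied more than the median probe of the array. Without scaling these were 4 (Actb, Hprt1, Ywhaz, and Gusb) and with normexp background correction 6 (Actb added to the 5).

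Which gene was steadiest depended on how the arrays were brought to 1 scale. Without scaling, the 75th percentile itself ranged from 1816.3 on DHI 2 to 3464.4 on I/R 3, and the SD of Tbp was 0.341, that of Actg1 0.186, and that of Ppia 0.144. With the spike-in controls the SDs were 0.232 for Tbp, 0.096 for Actg1, and 0.105 for Ppia, and with quantile normalization they were 0.116, 0.060, and 0.165. By its brightest probe, each of these 3 genes had a smaller SD than each of the other 6 under all 7 scalings, the authors' series table included. Their other probes did not all share this rank. The Actg1 probe A_64_P378624 had an SD of 0.302 with the 75th percentile and 0.530 without scaling, where the median over all probes was 0.471. The Ppia probe A_64_P058353 had SDs of 0.362 and 0.322. The SD of the brightest Gusb probe was the largest of the 9 genes under all 7 scalings (1.65 to 1.95). The median difference of all probes tested in I/R versus Sham was −0.10 with the 75th percentile and 0.10 without scaling, and differences as small as those of Tbp and Actg1 changed sign between the scalings.

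**Figure D3:**
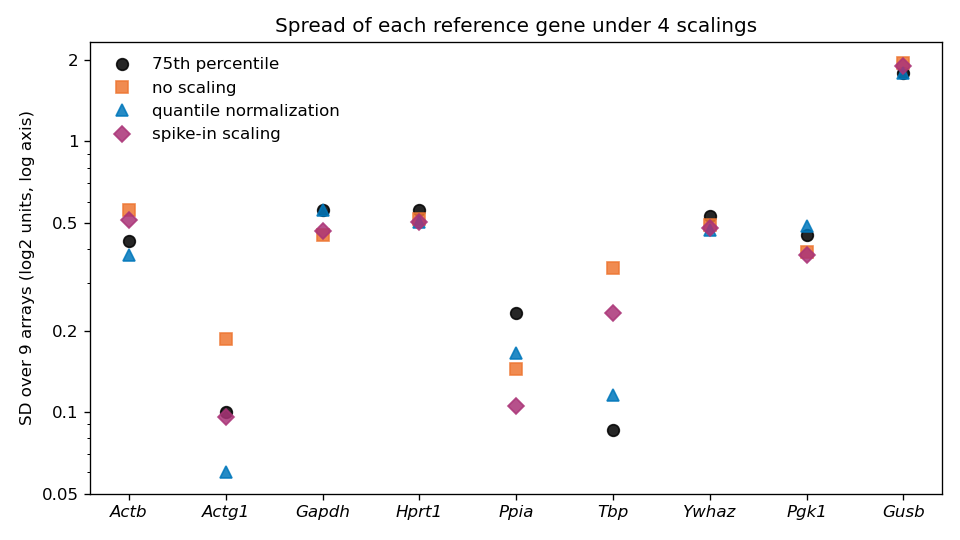
SD over the 9 arrays of the brightest probe of each reference gene, in log2 units on a log axis, under the 75th percentile, no scaling, quantile normalization, and spike-in scaling. Tbp, Actg1, and Ppia are lowest under all 4, but Tbp moves from 0.086 to 0.341 without scaling, whereas Gusb stays near 2.

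The ratio of 2 genes on the same array does not depend on a scaling by 1 factor for each array. For each gene the SD of this log2 ratio was averaged over the 8 other genes, which is the measure M of the geNorm method, with low values for steady genes. On the Sham arrays alone M was between 0.058 and 0.107. Over the 9 arrays it was 0.56 for Ppia, 0.58 for Actg1, 0.59 for Pgk1, 0.60 for Tbp, 0.63 for Ywhaz, 0.65 for Gapdh, 0.66 for Hprt1, 0.83 for Actb, and 2.03 for Gusb. The first 7 of these values lie close together. When single arrays were left out, Ppia kept the lowest M each time, but the order of the rest of these 7 changed. On the Sham arrays alone Ppia did not have the lowest M. Gusb and Actb had the largest M in every setting that held I/R arrays, and they were also the first to be removed when the least stable gene was taken away in steps.

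The steps ended with Hprt1 and Ywhaz, whose log2 ratio had an SD of 0.12, although both were about 1 log2 unit lower after I/R. This ratio was 0.45, 0.46, and 0.52 in Sham, 0.29, 0.53, and 0.21 in I/R, and 0.28, 0.32, and 0.46 in DHI. The ratios among Hprt1, Ywhaz, Gapdh, and Pgk1 had SDs of 0.12 to 0.16, so a choice of references by pairwise ratios alone kept a pair that moved together. Of the 36 pairs of genes, 30 had ratios that did not overlap between Sham and I/R, 14 between DHI and Sham, and 2 between DHI and I/R. The pairs share genes, so they are not separate observations. Ratios between other probes of the array were not counted, so these counts have no baseline of their own. Of all single probes tested, 62.5% did not overlap between Sham and I/R, 18.6% between DHI and Sham, and 9.53% between DHI and I/R. The 2 references most often set against each other, Actb and Gapdh, had a log2 ratio of −0.84, −0.91, and −0.81 in Sham, 1.24, 1.45, and 0.08 in I/R, and 0.82, −0.70, and −0.58 in DHI. The ratio of Actb to Gapdh was thus 3.42-fold higher after I/R, and that of Actg1 to Tbp 0.98-fold.

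**Figure D4:**
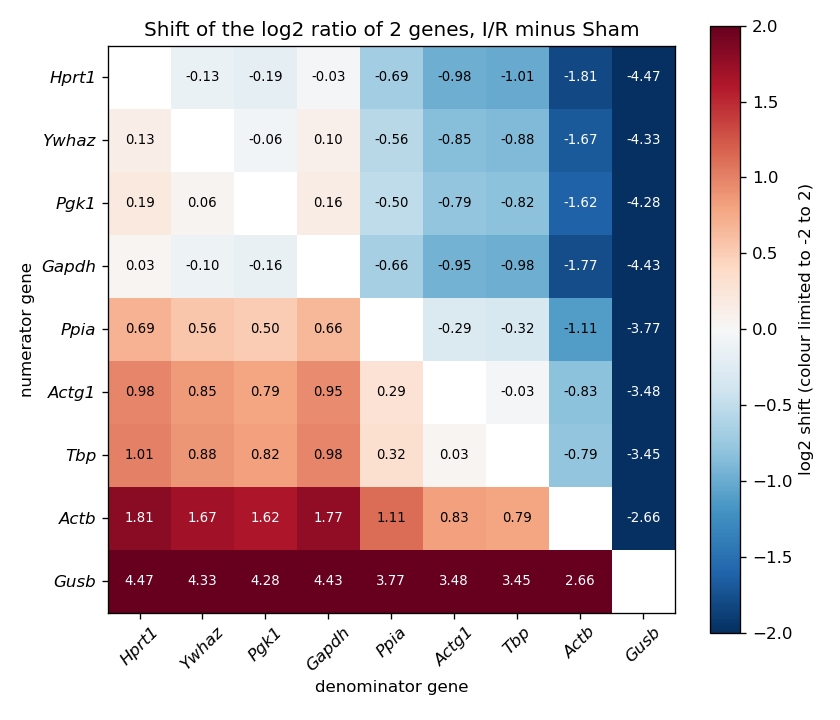
Shift of the log2 ratio of each pair of reference genes, I/R minus Sham, as the row gene over the column gene (red higher, blue lower, colours limited to 2 log2 units). Hprt1, Ywhaz, Pgk1, and Gapdh form a block with shifts of at most 0.19 in size, Actg1 against Tbp shifts by 0.03, and every ratio with Gusb shifts by at least 2.66.

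Cd44, a cell surface receptor of hyaluronan that the study also measured by qRT-PCR, shows what the reference does to a target. Relative to the 75th percentile it measured −2.97, −3.72, and −3.43 in Sham, 0.87, 0.59, and 0.24 in I/R, and 0.40, −3.35, and −2.45 in DHI. The I/R level was 15.4 times the Sham level (log2 3.94 ± 0.83, SE, limma adjusted p = 0.040). Divided by each reference gene on the same array, the same Cd44 signal was 15.9-fold higher relative to Actg1, 15.6-fold relative to Tbp, and 19.5-fold relative to Ppia. Relative to Pgk1, Ywhaz, Gapdh, and Hprt1 it was 27.6-fold, 28.7-fold, 30.7-fold, and 31.4-fold higher. Relative to Actb it was 8.99-fold higher and relative to Gusb 1.42-fold. These folds rest on the brightest probe of each reference. The Actg1 probe A_64_P378624 differed by 0.46 between I/R and Sham and would give a smaller fold than the brightest Actg1 probe. The Ppia probe A_64_P058353 differed by −0.72 and would give a larger fold than the brightest Ppia probe. The log2 difference relative to Actb, 3.17, exceeded the SDs of the groups (0.39 in Sham and 0.23 in I/R), whereas that relative to Gusb, 0.51, was close to them (0.36 and 0.44). Between I/R and DHI the fold of Cd44 was 4.29 relative to Actb, 9.05 relative to Gapdh, and 1.1 relative to Gusb, with SDs in DHI of 1.66, 2.49, and 0.23 log2 units. Relative to the 75th percentile Cd44 did not pass the test in DHI versus I/R (log2 −2.36 ± 0.83, SE, limma adjusted p = 0.20).

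**Figure D5:**
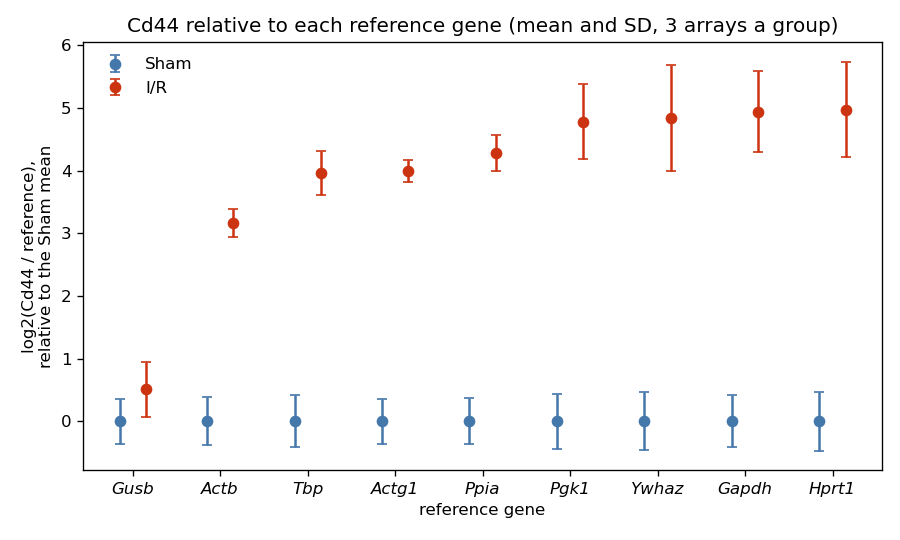
Log2 of Cd44 over each reference gene, relative to the Sham mean of that ratio, as mean and SD of 3 arrays in Sham (blue) and I/R (red). The mean in I/R goes from 0.51 with Gusb and 3.17 with Actb to 4.97 with Hprt1.

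In DHI versus I/R no member probe passed the adjusted test (0 of 15 by limma, against 0.00421% of all probes, 1 probe). With the limma p at the thresholds of the study's methods 6 did, against 21.9% of all probes. Gapdh differed by 0.81 ± 0.29, Hprt1 by 0.61 ± 0.29, Pgk1 by 0.59 ± 0.24, Actb by −0.26 ± 0.25, and Gusb by −2.23 ± 0.79 (limma adjusted p = 0.20, 0.21, 0.20, 0.45, and 0.20). Without scaling these differences were 0.35, 0.15, 0.13, −0.72, and −2.69, and the median of all probes was −0.36 in place of 0.10. An unadjusted p under 0.05 was found for 6 of the 15, against 25.4% of all probes, and the methods' t-test with its fold change called 0, against 1.97%. Only Tbp had groups that did not overlap, against 9.53% of all probes.

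The count in DHI versus I/R depended on DHI 1. Its Gusb, Gapdh, Hprt1, and Pgk1 values lay nearer to the I/R mean, and those of DHI 2 and DHI 3 nearer to the Sham mean. Without DHI 1, 11 of the 15 member probes passed the adjusted test in DHI versus I/R, against 44.6% of all probes. Gusb then differed by −3.24 and Gapdh by 1.1 (limma adjusted p = 0.0026 and 0.0099), while Actb differed by −0.46 and did not pass (limma adjusted p = 0.13). With array weights, which gave DHI 1 the lowest weight of the 9 arrays, 13 were called, against 70.6% of all probes.

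In DHI versus Sham 0 of the 15 probes passed the adjusted test by limma, as did 0 of all probes tested, of which 5.45% had an unadjusted p under 0.05. With the fold change over 1.5 added, 0 of the 15 were called by limma and 0 by the methods' t-test, against 3.58% and 1.89% of all probes. At this scaling Actb and Tbp were the 2 of 15 probes whose groups did not overlap, against 18.6% of all probes. Without scaling there were 9, with neither of these among them, against 32%. Quantile normalization gave 4 against 18.2%, the spike-in controls 4 against 17.7%, normexp 4 against 18%, the deposited series values 4 against 18.1%, and the percentile over probes well above background on every array 3 against 18.5%. Actb differed by 0.51 ± 0.25 and Gusb by 1.20 ± 0.79 (SE, both limma adjusted p = 0.71). In a test for any difference among the 3 groups 0 of the 15 passed (limma, smallest adjusted p 0.10), against 0.00421% of all probes, 14 passed with array weights, against 80.9%, and 12 without DHI 1, against 46.8%. These comparisons share arrays with those above.

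The cell types of the tissue changed with the same arrays, and their part in the values of the reference genes was not tested. Of all probes tested, 16.7% rose and 15.8% fell in I/R versus Sham with limma adjusted p under 0.05, and the marker counts are to be read against these shares. Of 13 markers of microglia and macrophages 12 rose, with a median difference of 3.61, against −0.10 over all probes tested. Their summed level (log2) was 4.49 to 4.80 in Sham and 7.41 to 8.78 in I/R, and 7.94, 4.92, and 5.24 on DHI 1, 2, and 3. Of 11 neuronal markers 9 fell, with a median of −2.66, and their summed level was 6.61 to 6.76 in Sham, 3.17 to 5.62 in I/R, and 4.98, 6.76, and 6.32 in DHI. Of 8 astrocyte markers 3 rose (median 0.54), led by Gfap, of 8 endothelial markers 2 rose (median 0.39), and of 8 oligodendrocyte markers 0 passed (median −0.03). The 4 red blood cell markers had a median of −2.11 and 0 passed, with summed levels of 2.21 to 5.27 in Sham, 1.49 to 2.04 in I/R, and 3.23 to 5.64 in DHI. No list held a marker that was below background on all arrays. In tissue RNA, fewer cells of a type and less RNA per cell cannot be told apart.

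Related genes of the reference genes were counted by list. The counts are to be read against 16.7% of all probes tested that rose and 15.8% that fell, and no list was tested as a set. Of 20 genes of actin turnover 8 rose and 1 fell in I/R versus Sham (median 0.48, against −0.10 over all probes). The largest changes were those of Capg, an actin filament capping protein, Arpc1b, a subunit of the Arp2/3 complex, and Pfn1, profilin (log2 4.01, 3.86, and 1.52), while Actr2 and Cfl1 had the smallest SD over the arrays (0.152 and 0.154). Of the 4 muscle actins 0 passed (median −0.24), with the smallest SDs for Actc1 and Acta1 (0.264 and 0.265). Of 15 genes of glycolysis 6 fell and 1 rose (median −0.97). The neuronal enolase Eno2 and the triosephosphate isomerase Tpi1 fell by 1.84 and 1.34, whereas hexokinase 2, Hk2, rose by 2.80. Pfkl and Eno1 varied least (SD 0.191 and 0.258).

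Of 21 lysosomal hydrolases, the group to which Gusb belongs, 16 rose and 0 fell (median 1.71). Ctsz, Ctss, and Glb1 rose most, by 4.67, 2.84, and 2.67, and Neu1 and Arsa varied least (SD 0.170 and 0.331). In the 14-3-3 family 2 of 5 other genes fell, Ywhag by 1.34 and Ywhah by 1.03 (median −0.79), 0 rose, and Ywhaq and Ywhae varied least (SD 0.165 and 0.254). Among 11 other cyclophilins Ppic and Ppib rose (log2 3.80 and 1.03) and Ppig fell by 1.03 (median −0.13), and Ppif and Ppil1 had SDs of 0.087 and 0.164. Of 13 other subunits of TFIID and its relatives 2 rose and 2 fell (median −0.14). Taf5 fell by 0.78, Taf12 rose by 0.76, and Taf2 fell by 0.70, while the SDs of Taf6 and Taf10, 0.069 and 0.083, were no larger than that of Tbp. Of 10 genes of purine metabolism 3 rose and 2 fell (median 0.49), with the salvage enzymes Pnp and Aprt among the 3 (log2 1.55 and 1.51), while Impdh1 fell by 1.29, so that Hprt1 and Aprt moved in opposite directions. Adk and Prps2 varied least (SD 0.148 and 0.246).

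Among 28 other genes that are used as references in quantitative PCR, 4 rose and 4 fell in I/R versus Sham, near the 16.7% and 15.8% of all probes (median 0.02), with SDs over the 9 arrays from 0.10 to 1.42 (median 0.26). B2m, the light chain of MHC class I, rose by 2.74, the elongation factor Eef1a1 rose by 0.84, and Tfrc, the transferrin receptor, fell by 1.06. Psmb6, a proteasome subunit, had the smallest SD, 0.104. The 5 symbols with the smallest SD among the 10% of tested probes with the highest mean signal were Hspe1, Sar1a, Vps28, Trim35, and Psmg1, with SDs of 0.042 to 0.048. These were picked on the scaled values, and without scaling their SDs were 0.254 to 0.303.

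The symbols whose values ran most alike with each reference over the 9 arrays are given as a description, with Pearson's r over arrays that share the same groups. For Gusb these were Grn, the gene of progranulin, and Lcp2, an adaptor of leukocyte signaling (both r = 0.999). For Gapdh they were Ndufs6, a subunit of respiratory complex I, and Kcnk1, a potassium channel (r = 0.998 and 0.997), apart from a probe named only by a contig, A_64_P019125, that shares a run of 25 bases with a Gapdh probe (r = 0.999). For Hprt1 they were Stau2 and Uhrf1bp1l, for Ywhaz Rasl10a and Rgs7, a regulator of G protein signaling, for Pgk1 Pip5k1c and Tmem25, and for Ppia Tpp2 and Spats2 (r = 0.995 to 0.999). Actb ran with Btbd7 and Vasn (r = 0.984 and 0.973), Actg1 with Dhx33 and Foxn1 (r = 0.986 and 0.977), and Tbp with Phlda1 and Hps3 (r = 0.973 and 0.956).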

How the data were processed

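For each array the authors deposited the intensity of every spot from Agilent Feature Extraction 10.7.1.1, with the background already subtracted but no scaling from array to array. The deposited flags for spots well above background or outlying, which are other coded values, served as filters, and the flag for saturation was only counted. A series table of log2 values that the authors deposited as well was used as an alternative. The log2 of the processed signal was averaged over the spots of a probe without outliers, and the 75th percentile of the array was subtracted. The 23747 probes that exceeded background on every array of 1 group or more were tested with limma 3.58.1 in R 4.3.3, in 1 model of 9 arrays with 6 residual degrees of freedom and Benjamini-Hochberg adjustment over all of them. No member value was missing (0), and 0 value columns were left unused. The share of probes well above background was 75.2% to 78.9%, and 0 spots were saturated; 3 arrays a group limit the precision. The labels number 3 replicates a group, which the study calls biological replicates. Levels of different probes are not comparable as amounts.

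The members, the gene lists, and the rule for the genes named were chosen with earlier results of these data known. The rule was every member probe, from each list the 3 genes with the largest change among those with an adjusted p under 0.05 in I/R versus Sham and the 2 with the smallest SD, the 2 symbols most alike to each member, the 5 steadiest bright symbols, and Cd44, except for a result that is not reported here. The lists gave the brightest probe of each gene. Alternatives were other scalings, normexp background correction (offset 50), the series table, other filters, groups, and weights, the methods' t-test, the replicate number as a block, and leaving out each array. The steps were tested on simulated data. Shared runs were sought among the probe sequences of the files. Gene names are those of the array's design and can be old.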

Additional observations from a re-analysis of the deposited data

How the results depend on the processing

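Of the 15 member probes, 9 were called in I/R versus Sham (32.4% of all probes), and 0 were called without scaling (0.00421%) and 2 with spike-in scaling (16%). Without the filter on dim probes 7 were called (16.6%), and Actb was not among them. A model of only the groups compared gave 13 (46.4%), and array weights gave 13 (74.5%). Leaving out 1 array gave 0 to 12 (0% to 51%). In DHI versus I/R, where 0 were called, array weights gave 13 (70.6%) and leaving out 1 array 0 to 11 (0% to 44.6%). There the thresholds of the study's methods gave 6 with the limma p (21.9%) and 0 with the methods' t-test (1.97%). For any difference among the 3 groups array weights gave 14 (80.9%) and leaving out 1 array 0 to 12 (0% to 46.8%). The shares in parentheses are those of all probes tested, which moved with the members' counts. In DHI versus Sham every setting gave 0. Of the 28 other reference genes tested, 8 were called, and 0 without scaling, 3 with spike-in scaling, 13 with normexp background correction, 4 without the filter on dim probes, 13 in a model of only the groups compared, 23 with array weights, and 0 to 18 on leaving out 1 array. The causes were not tested.

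The replicate numbers are shared by the groups, but the deviations of same-numbered arrays from their group means correlated between −0.34 and 0.48, so the arrays were not treated as pairs. With the replicate number as a block 9 member probes were called in I/R versus Sham (36.4% of all probes), 0 in DHI versus I/R, 0 in DHI versus Sham, and 0 among the 3 groups, and 9 of the other reference genes in I/R versus Sham.

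The differences that changed sign were small. In I/R versus Sham that of Actg1 was 0.14 without scaling, 0.048 with quantile normalization, 0.10 with spike-in scaling, 0.0082 with the percentile over probes well above background on all 9 arrays, 0.035 with normexp, and 0.044 in the series table, and −0.12 to 0.017 on leaving out 1 array. In DHI versus I/R it was −0.35 without scaling, −0.084 with quantile normalization, −0.10 with spike-in scaling, −0.056 with normexp, and −0.078 in the series table, and in DHI versus Sham −0.20, −0.036, −0.0078, −0.021, and −0.034 in the same order. Ppia was −0.12 without scaling in DHI versus I/R, and in DHI versus Sham −0.26, −0.088, −0.066, −0.071, and −0.082 in that order and −0.15 to 0.16 on leaving out 1 array. Tbp in I/R versus Sham was 0.18 without scaling, 0.13 with spike-in scaling, and 0.040 with the percentile over probes well above background on all 9 arrays. Gapdh in DHI versus Sham was −0.42 to 0.10 on leaving out 1 array. The directions of Actb, Gapdh, Hprt1, Ywhaz, Pgk1, and Gusb in I/R versus Sham did not change under any setting tried.

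The SD over the 9 arrays of Actg1 moved to 0.186 without scaling, 0.060 with quantile normalization, 0.062 with normexp, and 0.056 in the series table, that of Ppia to 0.144 without scaling, 0.105 with spike-in scaling, and 0.155 in the series table, and that of Tbp to 0.341 without scaling and 0.232 with spike-in scaling. On the Sham arrays alone M was 0.079 for Actb, 0.072 for Actg1, 0.058 for Gapdh, 0.092 for Hprt1, 0.072 for Ppia, 0.058 for Tbp, 0.107 for Ywhaz, 0.065 for Pgk1, and 0.092 for Gusb, and in the other settings it stayed within 1.5 times its value.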
